A study of Neurospora crassa with 18 samples.

Results

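Deletion of the transcription factor gene *nuc-3* (NCU03077) was compared with wild type in *Neurospora crassa*, a filamentous ascomycete fungus, after 12 h without phosphate. The comparison holds 6 of the 18 libraries of the series, 3 of wild type and 3 of Δ*nuc-3*, chosen by their labels for genotype, time and experiment. The wild type was a *mat a* strain. The Δ*nuc-3* strain carried nuc-3::HygR in a *mat a* background, so that a hygromycin resistance cassette stood in place of the gene. Each genotype was represented by 1 strain, and the effect of the deletion and of any other difference between these strains cannot be told apart. Both strains were grown from conidia for 24 h in Vogel's minimal medium with sucrose under constant light, washed, and moved to Fries minimal medium with 0 mM phosphate for 12 h before mycelia were harvested. The 3 libraries of a genotype came from independently inoculated cultures. No Δ*nuc-3* library from phosphate-sufficient medium was analysed here, so the values below describe starved mycelium only.

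Fungi meet phosphate shortage by making phosphatases, nucleases and phosphate permeases that collect phosphate, and by releasing it from lipids, nucleic acids and vacuolar polyphosphate. In *N. crassa* the basic helix-loop-helix factor NUC-1 turns these genes on. Upstream of it stand NUC-2, which acts in shortage, and a kinase and cyclin pair, MDK-1 and PREG, on which NUC-2 acts and which keeps NUC-1 inactive in cells with enough phosphate. NUC-3 is a basic helix-loop-helix protein encoded by a separate gene, and the comparison asks which transcripts differ when it is missing from starved cells.

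The deleted gene served as a check of the labels. *nuc-3*, on chromosome I from 4466719 to 4469259 of assembly NC12, was at 214, 115 and 160 rescaled TPM in the wild-type libraries and at 1.44, 1.41 and 0.42 in the Δ*nuc-3* libraries. TPM are shares of a library corrected for transcript length, and rescaled TPM are these values divided by a factor per library, which lay between 0.942 and 1.06. The 3 *mat A* genes were listed at 0 in all 6 libraries, as the *mat a* label of both strains requires, and the mating pheromone gene *mfa-1* was at 64.7, 216 and 85.6 rescaled TPM in wild type and 26.0, 31.9 and 47.3 in Δ*nuc-3*. A library listed between 8349 and 8716 genes above 0. The replicate SD of a gene had a median of 0.152 on the log2 scale for wild type and 0.139 for Δ*nuc-3*. Pearson correlations of log2 values across genes were 0.972 to 0.990 within wild type, 0.979 to 0.989 within Δ*nuc-3* and 0.956 to 0.985 between genotypes. The number of reads behind each value is unknown.

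Of the 8005 genes tested with limma, 51 were called higher in Δ*nuc-3* (0.637%) and 7 were called lower (0.0874%), the deleted gene among the latter. Genes were called where the limma adjusted p was below 0.05, where the mean rescaled TPM of the genotypes differed 2-fold or more, and where deposited TPM averaged 10 or more in a genotype. With 4-fold in place of 2-fold, 20 were called higher (0.25%) and 2 lower (0.025%). By the adjusted p alone, 113 genes were higher (1.41%) and 25 lower (0.312%), and by fold and level alone 84 were higher (1.05%) and 13 lower (0.162%). The higher genes had a median ratio of 3.47, a median level of 17.3 rescaled TPM in wild type and of 55.5 in Δ*nuc-3*, and 15 of them were below a mean of 10 TPM in wild type. In all 51 genes the lowest Δ*nuc-3* library was above the highest wild-type library. The calls, made on the same libraries, select for this arrangement, so it is no separate support for them. It was found in 15.3% of all genes tested. The corresponding share for lower genes was 14.2%, and all 7 called genes had it. These counts depended on single libraries, with 4 genes called higher and 1 lower without wild-type replicate 3, 11 and 2 without Δ*nuc-3* replicate 2, 20 and 2 without Δ*nuc-3* replicate 3, and 31 and 2 without Δ*nuc-3* replicate 1. The ratio was steadier than the call: 43 of the 51 higher genes kept a ratio of at least 2 whichever library was left out, while 5 genes (*nuc-3*, NCU03078, *pho-7*, *gt2-4* and NCU08786) were called each time.

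**Figure D1:**
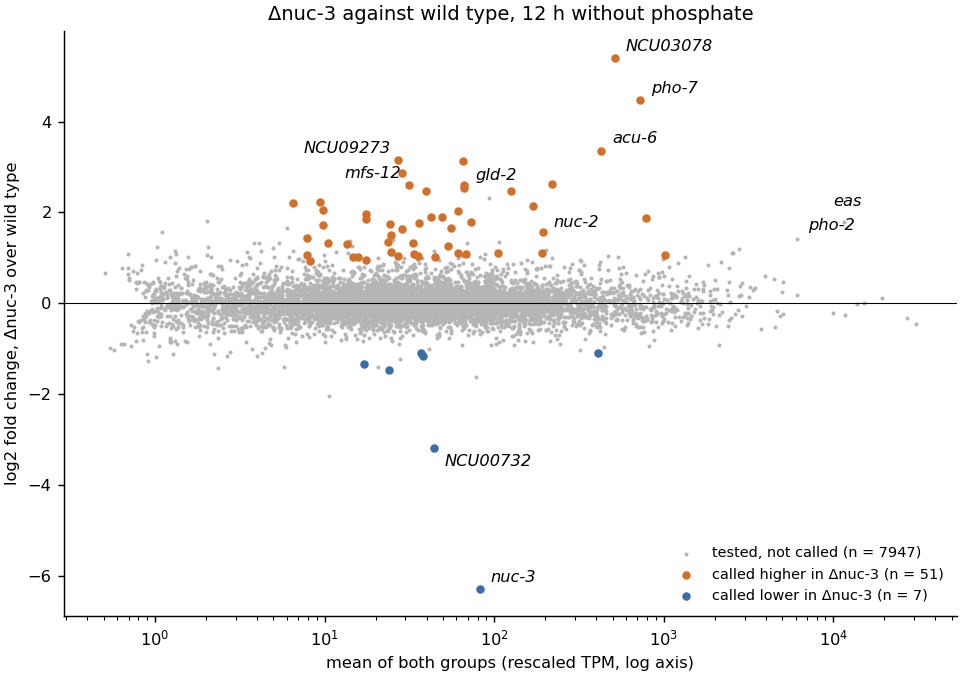
Each point is a gene, with its mean over both genotypes in rescaled TPM on a log axis (x) and its log2 fold change, Δ*nuc-3* over wild type (y). Orange points are the 51 genes called higher, blue points the 7 called lower, and grey points the other genes tested. NCU03078 and *pho-7* stand highest, and *pho-2* and *eas* lie above 1 on the log2 scale without a call.

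Among the regulators of phosphate sensing, *nuc-2* rose and the genes of the proteins it acts on stayed close to their wild-type levels. *nuc-2* (NCU11426), which encodes the inhibitor of the MDK-1 and PREG kinase complex, was at 99.9, 90.9 and 100.01 rescaled TPM in wild type and at 307, 333 and 233 in Δ*nuc-3*. The groups did not overlap, and the ratio was 3.00 (limma log2 fold change 1.56, SE 0.14, adjusted p = 0.0090). Without wild-type replicate 3, the adjusted p of *nuc-2* was 0.0647. The factor gene *nuc-1* (NCU09315) was at 49.2, 51.9 and 48.0 in wild type and 47.1, 49.8 and 44.9 in Δ*nuc-3*, with a ratio of 0.952 (limma adjusted p = 0.64). The cyclin gene *preg* had a ratio of 1.10 (limma adjusted p = 0.37) and the kinase gene *mdk-1* of 0.920 (limma adjusted p = 0.41). Of the 5 regulators tested, 1 was called higher, beside 0.637% of all genes tested. The deleted *nuc-3* was called lower, which the deletion fixed in advance.

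The phosphate transporter gene *pho-7* (NCU07375) showed the largest increase of any gene listed for phosphate uptake or release. It encodes a transporter of the major facilitator superfamily and lies on chromosome I from 6171978 to 6174862. *pho-7* was at 66.3, 51.8 and 60.5 rescaled TPM in wild type and at 1287, 1877 and 1003 in Δ*nuc-3*. The means were 59.5 ± 7.32 and 1389 ± 446 (SD, n = 3), a 23.3-fold difference (limma log2 fold change 4.48, SE 0.23, adjusted p = 0.00079). The *pho-7* ratio lay between 19.2 and 26.5 whichever library was left out.

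The other 4 transporter genes of the list did not pass the test. The high-affinity phosphate permease gene *pho-5* (NCU08325) was at 3863, 2210 and 3171 rescaled TPM in wild type and 4177, 4414 and 2923 in Δ*nuc-3*, and the groups overlapped (ratio 1.25, limma adjusted p = 0.50). The permease gene *pho-4* (NCU09564) was at 263, 160 and 200 against 376, 407 and 274, with no overlap between groups and a ratio of 1.69 (limma adjusted p = 0.13). NCU09767, a membrane transporter gene, was at 61.4, 45.4 and 62.0 against 132, 143 and 89.3 (ratio 2.16, limma adjusted p = 0.057). *trm-50* (NCU01055), a predicted chromate ion transporter gene, had a ratio of 1.18 and overlapping groups. The median log2 fold change of the 5 transporters was 0.77, beside a median of -0.01 over all genes tested.

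None of the 6 phosphatase or 3 nuclease genes was called by limma. Over all genes tested, 0.637% were called higher and 0.0874% lower, so lists this short can hold no call at the general share. The mean levels of these genes ran from 12.7 rescaled TPM for NCU03404 to 8896 for *pho-2*, both in Δ*nuc-3*. At an unadjusted p under 0.05, 3 phosphatase genes were higher and 1 lower, and all 3 nuclease genes were higher. Over all 8005 genes tested, 952 were higher and 784 lower at that limit. *pho-2* (NCU01376), for alkaline phosphatase, was at 4326, 2451 and 3339 rescaled TPM in wild type and at 9389, 10368 and 6932 in Δ*nuc-3*. The lowest Δ*nuc-3* library was above the highest wild-type library and the ratio was 2.64, but the adjusted p missed its threshold (limma log2 fold change 1.42, SE 0.27, adjusted p = 0.056). With a count-based method, the study's authors listed *pho-2*, *grn*, *gdp-1*, *bet-6* and NCU09767 as at least 2-fold higher in Δ*nuc-3*. Their RT-qPCR at 12 h also had *pho-2* higher in Δ*nuc-3*. For *pho-3* (NCU08643), an acid phosphatase gene, the libraries were at 2987, 1247 and 2253 against 2944, 3076 and 1712, with overlapping groups and a ratio of 1.19. The phytase gene *pht-1* had a ratio of 1.68 and the inorganic pyrophosphatase gene *ipp-2* of 1.503, each without overlap and without a call. The acid phosphatase gene NCU03404 lay in the other direction, at 15.5, 29.6 and 19.1 in wild type and 15.1, 8.65 and 14.3 in Δ*nuc-3* (limma adjusted p = 0.21). The median log2 fold change of the phosphatases was 0.44.

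All 3 nuclease genes had positive log2 fold changes, with no overlap between genotypes, as in 15.3% of all genes tested. The ribonuclease gene *grn* (NCU01045) was at 1673, 1377 and 1784 rescaled TPM in wild type and 3687, 4152 and 2672 in Δ*nuc-3* (ratio 2.17, limma adjusted p = 0.054). The deoxyribonuclease gene NCU09525 was at 826, 410 and 777 against 1478, 1641 and 826.1, so that the highest wild-type value and the lowest Δ*nuc-3* value were nearly equal (ratio 1.96, limma adjusted p = 0.18). *nuc-14* (NCU09788) had a ratio of 1.58.

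Of 12 genes listed for lipid metabolism, 3 rose and 11 had a positive log2 fold change, with a median of 0.96, beside 0.637% called higher and 48.4% positive over all genes tested. NCU06524 and the transcription factor gene *far-2* were listed for their change in these libraries, so these shares are not independent evidence. The called genes were NCU05859, which encodes a protein with a phospholipase domain, NCU06524, a homologue of phosphatidylethanolamine-binding proteins, and NCU02726, an ethanolamine kinase gene. NCU05859 was at 5.03, 9.48 and 5.27 rescaled TPM in wild type and 20.2, 32.7 and 32.1 in Δ*nuc-3* (ratio 4.30, limma adjusted p = 0.031). NCU02726 was at 12.1, 13.5 and 12.9 against 33.5, 38.6 and 30.7, with a spread far smaller than the 2.67-fold difference (limma adjusted p = 0.0071). NCU06524 went from 15.9, 23.6 and 16.4 to 42.2, 50.2 and 51.1 (ratio 2.56).

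*gdp-1* and *bet-6*, the lipid genes with the highest levels, were higher in every Δ*nuc-3* library without passing the test. *gdp-1* (NCU10038) is the gene for a glycerophosphoryl diester phosphodiesterase that frees phosphate from lipid breakdown products. It was at 2144, 1088 and 1842 rescaled TPM in wild type and 4175, 4949 and 2517 in Δ*nuc-3* (ratio 2.29, limma adjusted p = 0.13). *bet-6* (NCU03032), for the synthase of phosphorus-free betaine lipids, was at 1059, 622 and 947 against 1799, 2288 and 1248 (ratio 2.03, limma adjusted p = 0.12). *cea-6* (NCU04930) came next in level and its groups overlapped, at 888, 868 and 1049 against 951, 1051 and 847 (ratio 1.02, limma adjusted p = 0.94). The glycerophosphocholine phosphodiesterase gene *gde-1* had a ratio of 1.69 and the phospholipid transporter gene *mfs-10* of 1.92.

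For polyphosphate, the phosphate store of the vacuole, 1 of 4 genes was called higher, beside 0.637% of all genes tested. The called gene was listed for its change in these libraries, so its share of the list is not independent evidence. NCU03950, a homologue of vacuolar polyphosphate polymerases, was at 50.9, 72.6 and 59.7 rescaled TPM in wild type and 309, 325 and 196 in Δ*nuc-3* (ratio 4.53, log2 fold change 2.14, SE 0.22, limma adjusted p = 0.013). Next, the vacuolar transporter chaperone gene *vtc-1* was at 156, 114 and 133 against 231, 249 and 197 (ratio 1.68, limma adjusted p = 0.058). *vtc-2* and *vtc-3* had ratios of 1.11 and 1.18 with overlapping groups.

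Over the 52 genes listed for phosphate sensing, uptake, release, lipids, nucleotides, sugar phosphates and polyphosphate, without *nuc-3*, limma called 8 higher (15.4%) and 0 lower, and 39 had a positive log2 fold change. Over all genes tested, 0.637% were called higher and 0.0874% lower. At an unadjusted limma p under 0.05, 24 of the 52 were higher and 7 lower, beside 952 and 784 of all 8005 genes. Groups did not overlap in the upward direction in 26 of the 52 (50%), against 15.3% of all genes. No adjusted p of the other 44 genes was under 0.05. The 7 nucleotide genes had a median log2 fold change of -0.18 and no limma call (at an unadjusted p under 0.05, 1 was higher and 2 lower). These lists hold genes that were picked for their change in these libraries, among them *gt2-4*, *gld-2*, *far-2*, NCU06524 and NCU03950. The called share, the other counts and their direction are therefore not independent evidence. The same holds for *con-6*, NCU00848, *nit-14*, *tcf-10*, *mfs-12* and *sut-28* in the lists below. The summed level of the 52 genes was 14083 to 22522 rescaled TPM for wild type and 25784 to 40132 for Δ*nuc-3*. It was lowest within each genotype in wild-type replicate 2 and Δ*nuc-3* replicate 3, which also had the highest summed level of 67 cytosolic ribosomal protein genes of their genotype, at 69588 and 57984. The part of this shared pattern in the results was not tested.

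**Figure D2:**
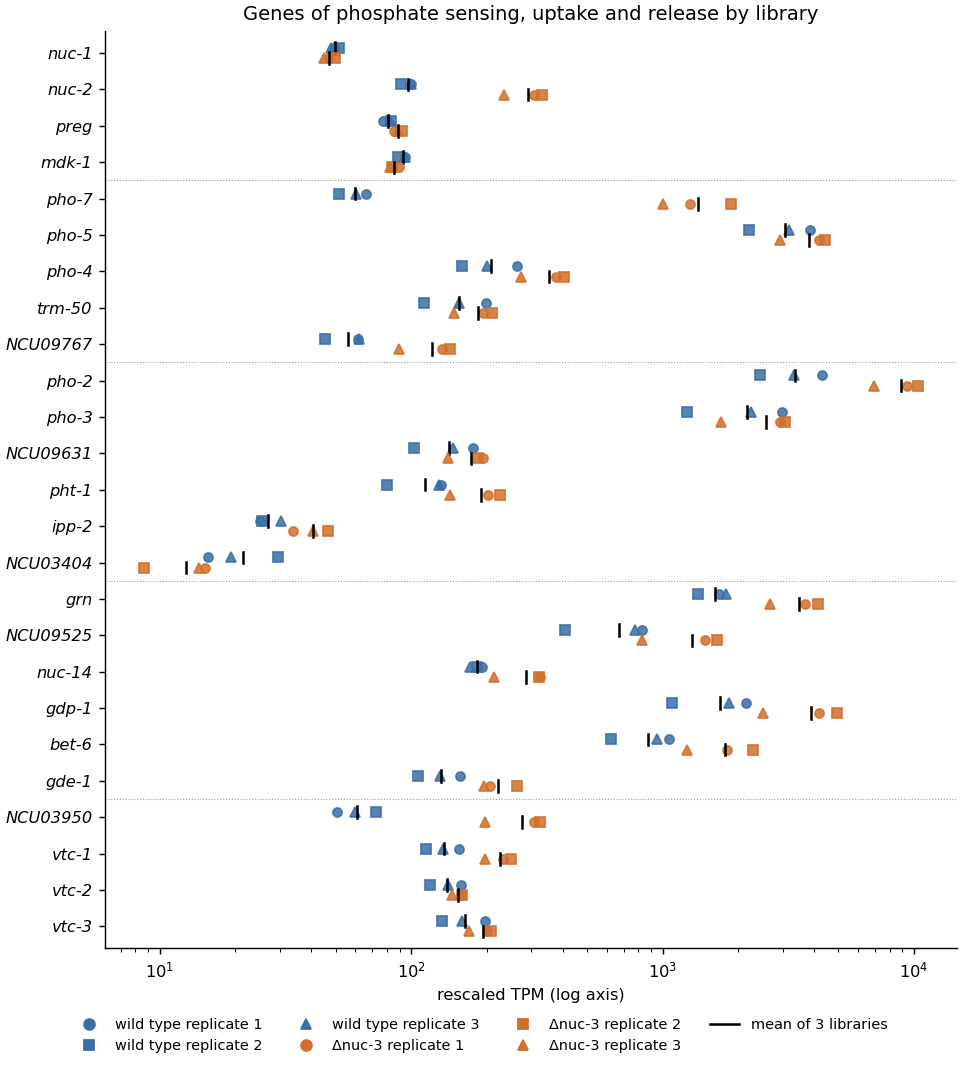
Rescaled TPM on a log axis in each library for genes of phosphate sensing, transport, phosphatases, nucleases with lipid enzymes, and polyphosphate, parted by dotted lines from top to bottom. Blue marks are wild type, orange marks Δ*nuc-3*, each shape a replicate and each bar the mean of 3 libraries. *pho-7*, *nuc-2* and NCU03950 are set widely apart, *nuc-1*, *preg* and *mdk-1* lie together, and wild-type replicate 2 and Δ*nuc-3* replicate 3 are the lowest of their genotype in most genes of the middle groups.

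Outside the phosphate genes, the carbon metabolism gene *acu-6* (NCU09873) had the largest ratio of any called gene with an annotated function. It encodes phosphoenolpyruvate carboxykinase, which opens gluconeogenesis from acetate and other short carbon sources. It was at 86.2, 43.8 and 94.4 rescaled TPM in wild type and 847, 1056 and 448 in Δ*nuc-3* (ratio 10.5, limma log2 fold change 3.36, SE 0.39, adjusted p = 0.019). With a library left out the adjusted p of *acu-6* reached 0.089 at most, while the ratio lay between 8.66 and 12.7. The other genes of its list did not move with *acu-6*. Isocitrate lyase, *acu-3*, was at 55.1, 97.4 and 90.1 against 94.5, 100.1 and 88.8, malate synthase, *acu-9*, had a ratio of 1.19, and acetyl-CoA synthetase, *acu-5*, of 0.810. The fructose bisphosphatase gene *fbp-1* had a ratio of 1.19 and overlapping groups. Of the 5 genes listed for the glyoxylate cycle and gluconeogenesis, *acu-6* alone was called, beside 0.637% of all genes tested called higher.

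The nearby genes *gld-2* (NCU08228) and *gt2-4* (NCU08226), which encode a UDP-glucose dehydrogenase and a homologue of nucleotide-diphospho-sugar transferases, had close to identical levels. *gld-2* was at 13.8, 27.6 and 15.0 rescaled TPM in wild type and 98.4, 118 and 127 in Δ*nuc-3* (ratio 6.09, limma adjusted p = 0.0094). *gt2-4* was at 16.1, 25.0 and 16.003 against 97.5, 118 and 124 (ratio 5.95, limma adjusted p = 0.0068). Wild-type replicate 2 was the highest of its group for both genes. They were the called genes among 11 of sugar phosphate metabolism, whose median log2 fold change was 0.10. Over all genes tested, 0.637% were called higher. Both genes were listed for their change in these libraries, so their share of the list is not independent evidence.

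Several transporters and ion pumps rose. *mfs-12* (NCU05585), for a predicted quinate transporter, was at 8.35, 7.32 and 8.09 rescaled TPM in wild type and 63.3, 68.5 and 34.6 in Δ*nuc-3* (ratio 7.01, limma adjusted p = 0.0090). *trm-1* (NCU07966), for a calcium-transporting ATPase, was barely present in wild type, at 1.44, 2.04 and 1.504, and reached 11.7, 13.7 and 8.65 (ratio 6.84, limma adjusted p = 0.0081). The P-type ATPase gene *ena-1* (NCU05046), whose yeast counterpart exports sodium, was at 19.6, 30.3 and 21.2 against 105, 99.7 and 92.3 (ratio 4.17, limma adjusted p = 0.0071). The amino acid transporter gene *aap-17* (NCU08066) differed by 2.12-fold, from 36.9, 51.6 and 42.4 to 93.3, 91.5 and 92.9. The ABC transporter genes NCU00290 and NCU08056 had ratios of 3.89 and 3.22 and were at or below 19.1 rescaled TPM in all libraries.

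Among 8 genes of nitrogen metabolism, *nit-14* (NCU03011), a predicted molybdenum cofactor sulfurase gene, rose from 3.23, 3.02 and 2.79 rescaled TPM in wild type to 9.10, 22.5 and 18.1 in Δ*nuc-3* (ratio 5.51, limma adjusted p = 0.031). The glutamate dehydrogenase gene *am* was at 301, 299 and 281 against 555, 545 and 554, a difference of 1.88-fold with little spread (limma adjusted p = 0.0090) that is below the ratio needed for a call. *tcf-10*, a homologue of the nitrogen regulator gene tamA of *Aspergillus nidulans*, had a ratio of 2.03 and missed the threshold (limma adjusted p = 0.054). The glutamine synthetase gene *gln-1* was lower in each Δ*nuc-3* library, at 509, 487 and 480 against 313, 302 and 423, without a call (limma adjusted p = 0.12). The list's median log2 fold change was 0.03, and 1 of its 8 genes was called higher, beside 0.637% of all genes tested.

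Of 9 genes of conidiation, the formation of asexual spores, *con-6* and NCU00848 rose and all 9 log2 fold changes were positive, with a median of 0.60. Over all genes tested 0.637% were called higher and 48.4% were positive, and the called members of the list were picked for their change in these libraries. *con-6* (NCU08769) was at 8.37, 10.8 and 11.2 rescaled TPM in wild type and 21.6, 22.1 and 20.3 in Δ*nuc-3* (ratio 2.11, limma adjusted p = 0.020). NCU00848, an integral membrane protein gene, was at 23.2, 46.9 and 27.9 against 81.0, 109 and 149.6 (ratio 3.47, limma adjusted p = 0.046). Most RNA of the list came from *eas* (NCU08457), the hydrophobin that coats conidia. It was at 5010, 6994 and 3607 against 13671, 15599 and 24232, with no overlap and a ratio of 3.43, but its adjusted p missed the threshold (limma adjusted p = 0.054). The spore genes *con-8* and *con-10* had ratios of 1.46 and 1.12 and overlapping groups. The summed level of the 9 genes was 4471 to 8258 for wild type and 14925 to 25879 for Δ*nuc-3*, with its highest value in Δ*nuc-3* replicate 3.

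Other called genes of known or predicted function were spread over cell wall, redox and secondary metabolism. The alternative oxidase gene *aod-2* rose 2.14-fold, from 8.97, 10.1 and 8.99 rescaled TPM to 21.6, 21.8 and 16.7, and the chitinase gene *chit-1* rose 3.24-fold, from 19.8, 29.5 and 29.9 to 75.7, 70.5 and 110. The fatty acid oxygenase gene NCU05858 was at 9.58, 18.1 and 7.51 in wild type and 42.7, 78.3 and 82.2 in Δ*nuc-3* (ratio 5.78). The polyketide synthase gene *pks-3* rose 2.78-fold and the developmental regulator gene *ada-6* 3.69-fold. NCU08055, annotated as a bZIP transcription factor, was at 332, 334 and 327 in wild type, an SD of 3.42, and at 1122, 1593 and 995 in Δ*nuc-3* (ratio 3.74, limma adjusted p = 0.0090). The hypothetical protein gene NCU09734 rose 11.02-fold with a wide spread, from 10.2, 11.8 and 10.6 to 48.3, 116 and 195. NCU04340, an acetyltransferase gene, rose 6.34-fold, from 67.4, 48.5 and 62.9 to 377, 481 and 277.

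Besides *nuc-3*, 6 genes were called lower, of which NCU00732 fell most and the other 5 were 2.16-fold to 2.98-fold lower. NCU00732 was at 85.8, 40.7 and 116 rescaled TPM in wild type and at 7.10, 7.92 and 6.89 in Δ*nuc-3*, 11.1-fold lower (limma log2 fold change -3.18, SE 0.35, adjusted p = 0.014). The predicted nicotinic acid transporter gene NCU09698 went from 44.2, 23.6 and 40.7 to 12.3, 14.5 and 9.64 (2.98-fold lower, limma adjusted p = 0.046). The copper radical oxidase gene NCU09267 went from 32.8, 19.4 and 22.6 to 9.27, 7.75 and 10.3 (2.74-fold lower). The rhamnose transporter gene *sut-28* (NCU05897) went from 63.1, 43.0 and 52.9 to 20.97, 28.9 and 20.0 (2.28-fold lower, limma adjusted p = 0.036). NCU02343, annotated as an alpha-L-arabinofuranosidase, had the smallest spread, at 49.7, 49.9 and 52.9 against 25.8, 21.6 and 22.6 (2.18-fold lower, limma adjusted p = 0.0071). NCU10572 was 2.16-fold lower. Of 4 carbohydrate transporter genes listed, *mfs-12* was thus higher and *sut-28* lower, with a median log2 fold change of -0.43. Over all genes tested, 0.637% were called higher and 0.0874% lower. The transporter gene NCU06341 was at 52.9, 20.0 and 47.2 against 18.2, 20.1 and 9.42, and its groups overlapped (limma adjusted p = 0.16). Of 67 cytosolic ribosomal protein genes 0 were called by limma, although 1 (NCU04614, for L19) passed the adjusted p in the downward direction. At an unadjusted limma p under 0.05, 1 of the 67 was higher and 8 were lower, beside 952 and 784 of all 8005 genes tested. The 67 genes had a median log2 fold change of -0.22, and 14 were positive. Their groups did not overlap in the downward direction in 18, against 14.2% of all genes.

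**Figure D3:**
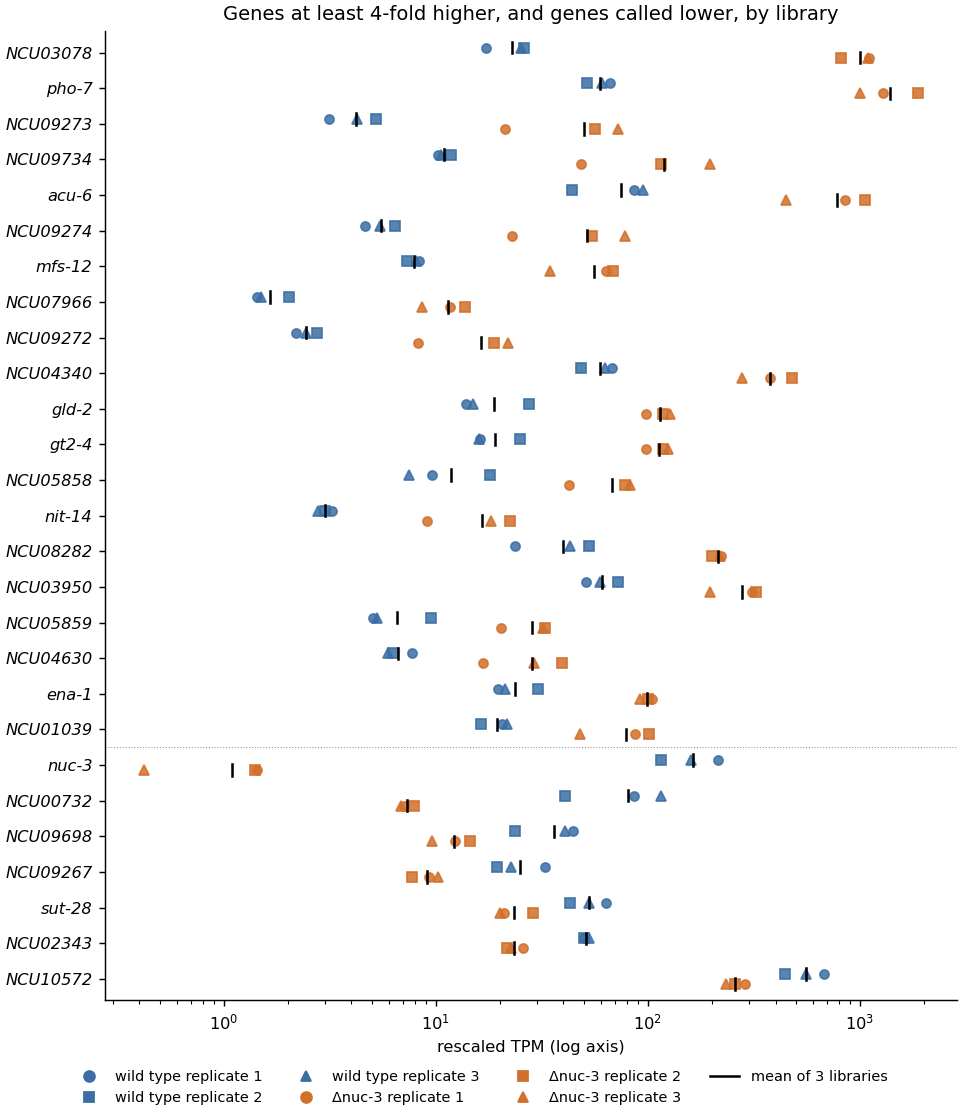
Rescaled TPM on a log axis in each library for the 20 genes at least 4-fold higher in Δ*nuc-3* (above the dotted line) and the 7 genes called lower (below it). Blue marks are wild type, orange marks Δ*nuc-3*, shapes are replicates and bars are means of 3 libraries. No gene shows overlap, NCU09734 and the genes NCU09272 to NCU09274 have their lowest Δ*nuc-3* value in replicate 1, and *pho-7*, *acu-6* and *mfs-12* have theirs in replicate 3.

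The Δ*nuc-3* libraries did not order the higher genes in the same way. Among the 51 genes, replicate 1 was the lowest Δ*nuc-3* library for 28, replicate 3 for 17 and replicate 2 for 6, and replicate 2 was the highest for 30. In wild type, replicate 2 was the highest library for 30 of the 51 and replicate 1 the lowest for 29. *eas* and the run NCU09272 to NCU09274 were highest in Δ*nuc-3* replicate 3, in which *pho-7*, *nuc-2*, *pho-2*, *gdp-1* and *acu-6* were lowest.

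The largest increase of all was at the gene next to the deletion. NCU03078, a hypothetical protein gene on chromosome I from 4469902 to 4471900, lies 642 bp beyond *nuc-3*. It was at 17.3, 26.1 and 25.2 rescaled TPM in wild type and at 1105, 811 and 1094 in Δ*nuc-3*, a 43.9-fold difference (limma log2 fold change 5.40, SE 0.19, adjusted p = 0.00020). On the other side, NCU03076, which ends 242 bp before *nuc-3*, had a ratio of 1.19 and overlapping groups. The genes placed second on either side were NCU03074, at 14.6, 14.1 and 16.1 against 27.4, 26.2 and 23.8 (ratio 1.73, limma adjusted p = 0.023), and NCU03079, with a ratio of 1.14. The part that the position beside the replaced gene has in the value of NCU03078 was not tested.

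Higher genes also lay beside each other elsewhere in the genome. Of the 51, 14 (27.5%) had a directly neighbouring gene that was also called higher, in 6 runs of 2 or 3 genes. Of the 6450 tested genes at or above 10 TPM that were not called higher, 52 (0.806%) had such a neighbour. The run with the largest ratios was NCU09274, NCU09273 and NCU09272 on chromosome VII, between 114609 and 125416, with ratios of 9.40, 11.9 and 6.65. NCU09273 was at 3.13, 5.199 and 4.23 rescaled TPM in wild type and 21.1, 56.5 and 72.0 in Δ*nuc-3*, and its neighbours followed the same order of libraries. On chromosome IV, NCU04862, *pks-3* and *ada-6* lay between 517962 and 539552. The fatty acid oxygenase gene NCU05858 stood beside the phospholipase domain gene NCU05859, the malate/L-lactate dehydrogenase gene NCU05586 beside *mfs-12*, NCU07967 beside *trm-1*, and NCU08055 beside the predicted drug exporter gene NCU08056. *gt2-4* and *gld-2* on chromosome III were parted by NCU08227, which had a ratio of 1.60 (limma adjusted p = 0.18), and NCU08053, itself 2.16-fold higher, was parted from NCU08055 by NCU08054, with a ratio of 1.12.

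**Figure D4:**
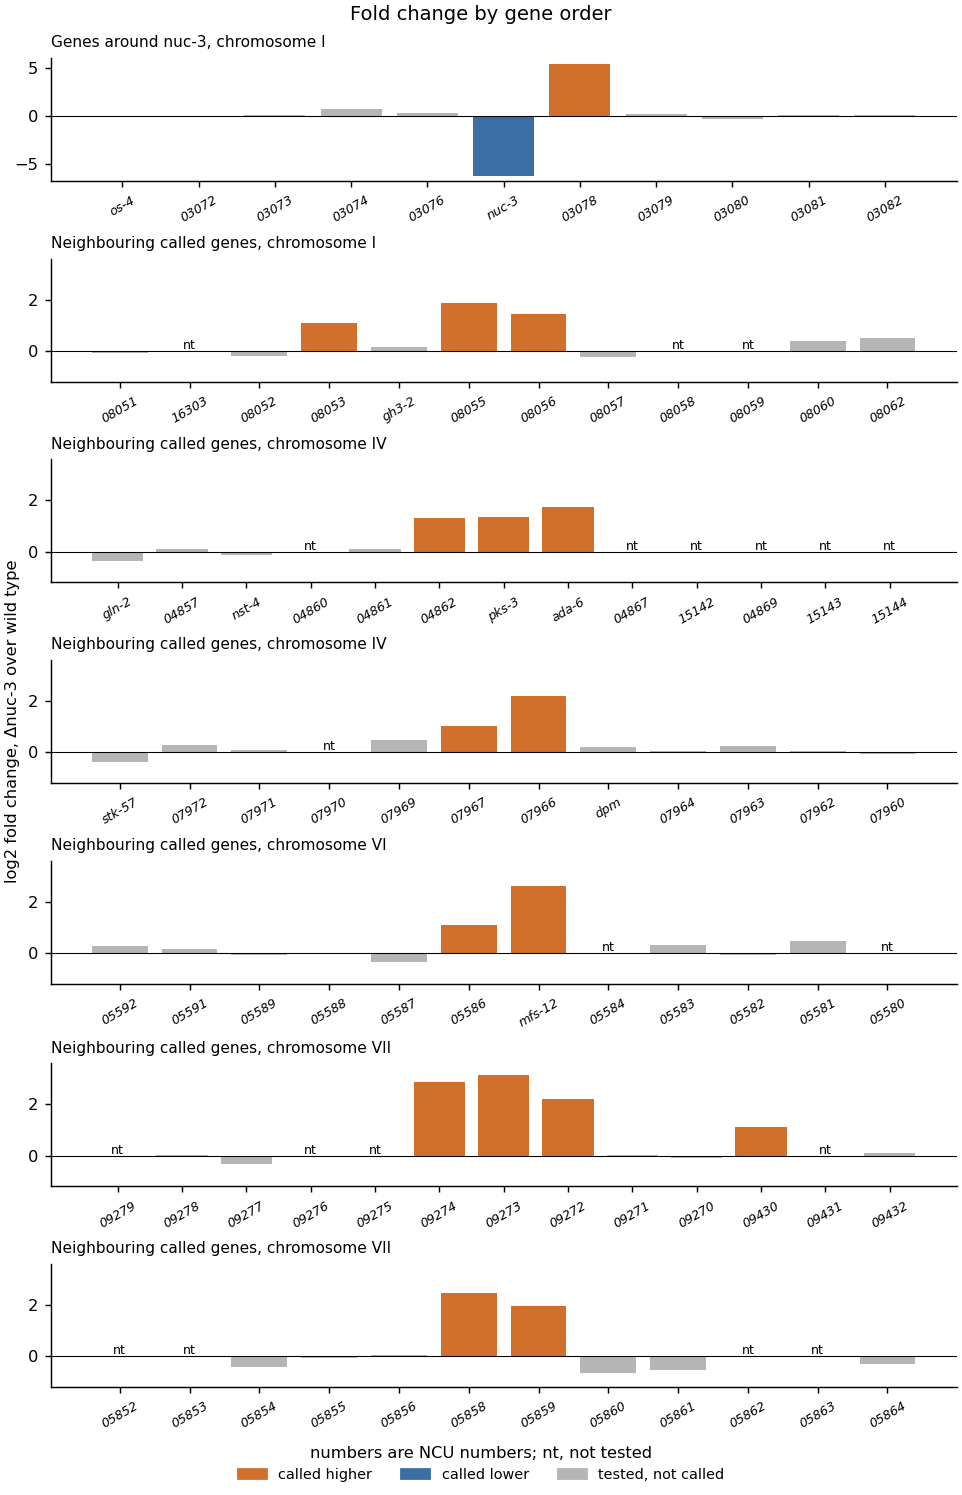
Log2 fold change, Δ*nuc-3* over wild type, of consecutive genes in chromosomal order around *nuc-3* (top) and around the 6 runs of called neighbours, with the vertical scale of the top panel wider than that of the others. Orange bars are genes called higher, blue called lower and grey tested without a call, and nt marks genes not tested. NCU03078 stands alone beside *nuc-3*, and the run at NCU09274 is the highest of the others.

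Binding of NUC-3 to promoters was set beside these calls. The study's authors mapped NUC-3 binding to genomic DNA in vitro by DAP-seq, in which a protein made in an extract is mixed with DNA fragments, and listed the genes with a peak up to 3000 bp upstream of the start codon. The list has 1793 genes and was used here for which genes have a peak and how far it lies from the start codon. A peak was listed for 18 of the 51 higher genes (35.3%) and for 0 of the 6 lower genes besides *nuc-3*, which itself has one, against 19.1% of the 6501 tested genes that averaged 10 TPM or more in a genotype. It was listed for 10 of the 20 genes at least 4-fold higher (50%) and for 8 of the 31 between 2-fold and 4-fold (25.8%). Without NCU03078, the neighbour of *nuc-3*, the counts were 17 of 50 (34.0%) and 9 of 19 (47.4%). Within 1000 bp of the start codon, 6 of the 51 had a peak (11.8%), against 7.84% of the 6501. Seen from the list, 55.0% of the 1240 tested genes with a peak had a positive log2 fold change against 47.0% of the 5261 without, and 1.45% against 0.627% were called higher.

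The higher genes with a peak included *pho-7*, *nuc-2*, NCU03950, *mfs-12*, *trm-1*, *gt2-4*, *gld-2*, *nit-14*, NCU04630, NCU08282, *con-6*, NCU00848, NCU06524 and *aap-17*. NCU08282, a hypothetical protein gene, was at 23.6, 52.6 and 42.7 rescaled TPM in wild type and at 221, 201 and 219 in Δ*nuc-3* (ratio 5.39, limma adjusted p = 0.014). *acu-6*, NCU09734, *ena-1* and the run NCU09272 to NCU09274 had none listed. Most genes with a peak were not called, among them *pho-3*, *pho-5* and *vtc-2*, whose groups overlapped.

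The genes were also followed in the other experiments of the series, which share no library with this comparison. In 1 of them, separate wild-type cultures were moved to medium with 7 mM or with 0 mM phosphate and measured at 4 h. In the other, Δ*nuc-1* and wild type were measured at 4 h without phosphate. By the study's account, these libraries were read on other instruments and with other read lengths, and those of the phosphate experiment at another centre. Its authors called differences only between samples that shared centre and platform. Their wild type was *mat A* and Δ*nuc-1* was *mat a*, so that mating type and the *nuc-1* deletion cannot be told apart in the latter comparison, in which *matA-1* averaged 4.20 deposited TPM for the wild type and 0.020 for the mutant. At a 4-fold threshold, 315 of 8396 genes were called higher in starved wild type (3.75%), 301 lower (3.59%), and 66 of 8037 lower in Δ*nuc-1* (0.821%). Of the 50 higher genes tested in the starvation experiment, 5 were called higher there (10%, and 1.62% of that list) and 1 lower (2.0%), against 4.37% and 3.78% of tested genes at or above 10 TPM. These were *con-6*, NCU04340, NCU05859, NCU09273 and NCU09274, and in the downward direction NCU08282. Of 49 tested with Δ*nuc-1*, 3 were called lower (6.12%, and 4.76% of that list), *pho-7*, *nuc-2* and NCU05586, against 0.976% of genes. None was called higher in Δ*nuc-1* at that threshold, at which 1.28% of genes were.

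At a 2-fold threshold the higher genes fell on both sides of starvation. Starved wild type had 12 of the 50 higher (24.0%) and 8 lower (16%), against 11.7% and 11.7% of genes at or above 10 TPM and calls in 10.2% and 10.2% of all genes tested. The 12 included *nuc-2*, *con-6*, NCU04340, NCU05858 and NCU08055, and the 8 were NCU03078, *gld-2*, *gt2-4*, NCU08282, *aap-17*, *aod-2*, NCU02726 and NCU08786. In Δ*nuc-1*, 11 of 49 were lower (22.4%, against 4.08%, with 3.45% of all tested genes called) and *aod-2* was higher, in a direction where 4.57% of tested genes were called. The 11 were *pho-7*, *nuc-2*, *trm-1*, *ena-1*, *pks-3*, NCU04340, NCU05586, NCU05858, NCU07439, NCU07948 and NCU07967. The higher genes had a median ratio of 1.63 for starved wild type over 7 mM and of 0.671 for Δ*nuc-1* over wild type. No median over all genes stands beside these 2 values. They include genes of low level there, such as NCU00290, with means of 0.254 deposited TPM at 7 mM and 1.98 at 0 mM.

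Read from the other side, 54 genes were both 4-fold higher in starved wild type and 4-fold lower in Δ*nuc-1* at 4 h. None of them was called higher in Δ*nuc-3* at 12 h by limma, and the deleted *nuc-3* and *sut-28* were called lower. Over all genes tested, 0.637% were called higher and 0.0874% lower, so a list of 54 genes can hold no higher call at the general share. At an unadjusted limma p under 0.05, 18 of the 54 were higher and 5 lower, beside 952 and 784 of all 8005 genes tested. Their log2 fold changes were positive in 43 of 54 (79.6%), against 48.4% of all genes tested, with a median of 0.30. Groups did not overlap in the upward direction in 18 (33.3%) and in the downward direction in 5, against 15.3% and 14.2% of all genes tested. The deleted *nuc-3* is among the lower genes in each of these counts.

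Across the series, *pho-7* had a mean of 68.2 deposited TPM at 7 mM phosphate, 88.7 after 4 h at 0 mM in the same experiment, 256 and 49.1 for wild type and Δ*nuc-1* in the other 4 h experiment, 60.3 for wild type at 12 h and 1400.0 in Δ*nuc-3*. *nuc-2* had 31.8, 169, 195, 41.0, 98.0 and 292 in the same order. *gld-2* had 175, 119, 91.0, 71.6, 18.7 and 114, so that its level in Δ*nuc-3* was close to those at 4 h and wild type at 12 h stood lowest. *acu-6* had 16.7, 38.0, 51.2, 44.1, 76.4 and 792. Time, sequencing centre, instrument, read length and the mating type of the wild type differ between these experiments and cannot be told apart in levels set across them.

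**Figure D5:**
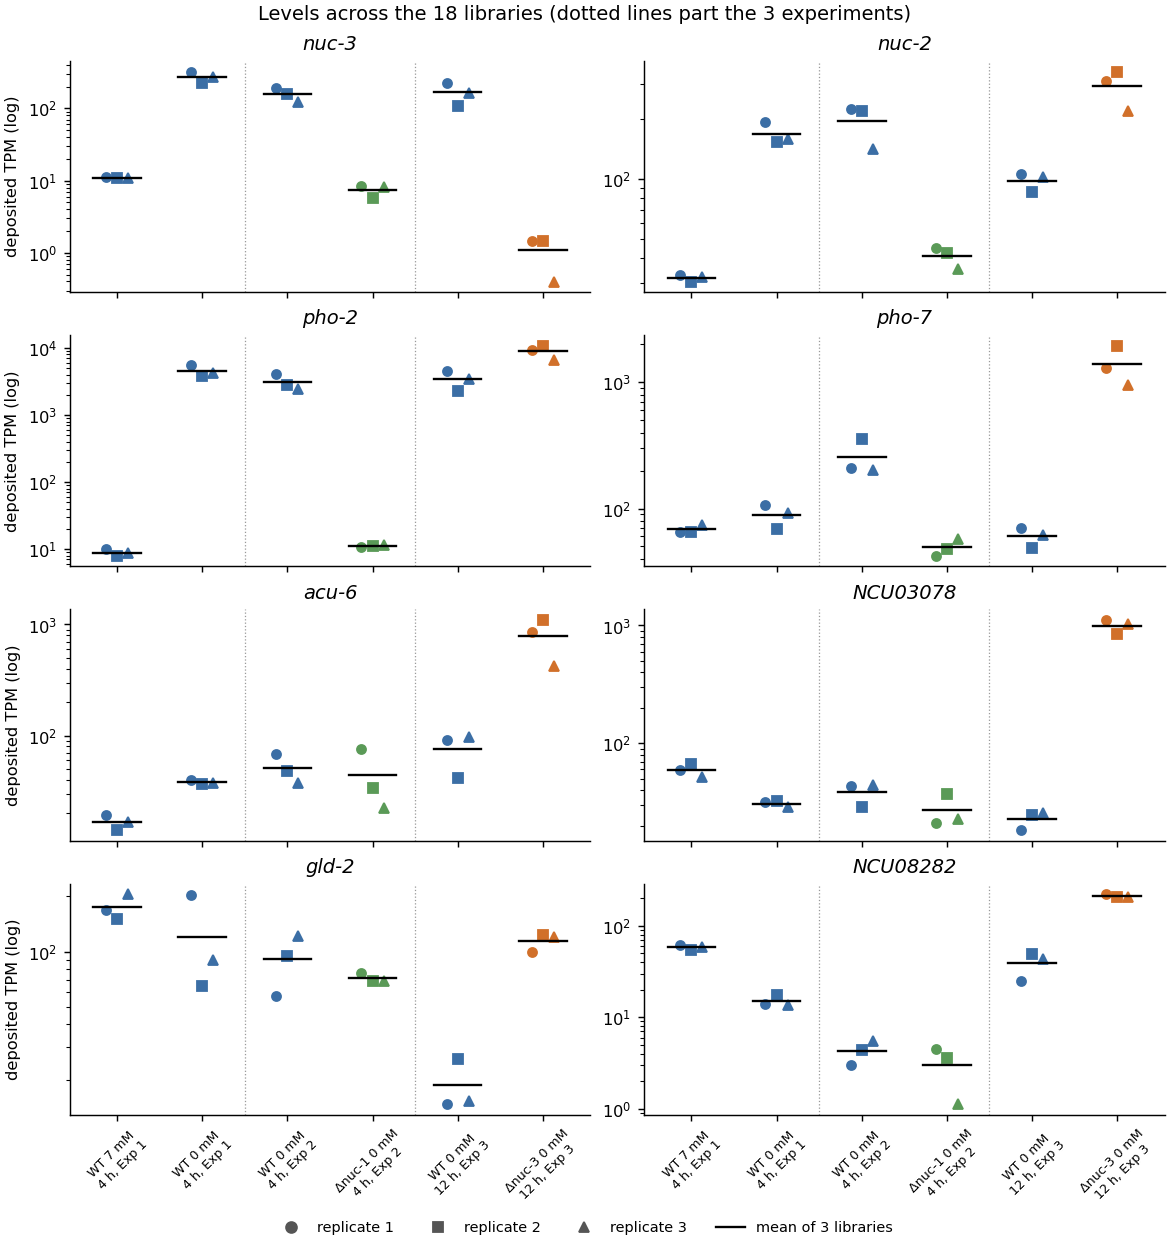
Deposited TPM on a log axis for 8 genes in the 18 libraries, with the 6 groups of the series along the bottom and dotted lines between the 3 experiments. Shapes are replicates, bars are means of 3 libraries, and colours part wild type (blue) from Δ*nuc-1* (green) and Δ*nuc-3* (orange). *pho-2*, *pho-7*, *acu-6*, NCU03078 and NCU08282 are higher in each Δ*nuc-3* library than in any other library. *nuc-2* has its highest mean in Δ*nuc-3*, with libraries that overlap those of wild type at 4 h, and *gld-2* is lowest in wild type at 12 h.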

How the data were processed

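Poly(A)-enriched mycelial RNA from 6 libraries was analysed, with groups taken from the deposited labels. The authors made TPM with Salmon version 1.4.0 against OR74A version 12 transcripts and deposited them for the whole series. TPM keep no counts, so depth is unknown and the authors' count test (DESeq2) was replaced. Rows were summed per gene (8.4% of 9774 genes had several). Each library was divided by its median ratio to the geometric mean over the 6. Genes averaging 1 TPM or more in a genotype were fitted on log2(TPM + 1) with limma version 3.58.1 (trend) in R version 4.3.3, with Benjamini-Hochberg adjustment. Fitted fold changes on this scale understate changes of low genes, and ratios are of mean rescaled TPM. An exact permutation test of 3 against 3 cannot go below p = 0.10. Tables and figures used Python version 3.11.15, pandas version 2.3.3, NumPy version 2.4.6 and matplotlib version 3.10.9. Positions and some names are from RefSeq's NC12 annotation, in which 1 gene was missing, and other descriptions from the annotation in the study's supplement. Ribosomal protein genes are those annotated as such in the part of it held here. The named genes are those called, those on 13 fixed lists, those the study named for this comparison, and 2 genes on either side of *nuc-3*. Members and lists were chosen with earlier results of these data known. The procedure was tested on simulated data. Alternatives covered scaling, pseudocount, filters, thresholds, spread, the samples fitted, the replicate number, the row used per gene and each library left out.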

Additional observations from a re-analysis of the deposited data

How the results depend on the processing

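The higher count of 51 stayed within 1.5 times with unscaled TPM (49), rescaling by upper quartile (50), 0.1 added before the log (51), no filter (48), no 10 TPM minimum (57), 2-fold asked of the fitted change (49), robust spread (54), all 18 libraries (75) and the row listed at the top (55). The lower count of 7 became 4 with TPM as deposited, 11 with all libraries fitted and 12 with the row listed at the top. Without a condition on the adjusted p, an alternative chosen after seeing the data, 84 genes were higher and 13 lower. With each library left out in turn, 4 to 39 genes were called higher and 1 to 11 lower. The replicate numbers did not pair the samples (correlations of deviations of -0.10, -0.56 and -0.07 for equal numbers). With the replicate number as a block, 2 genes were called higher and 1 lower. At an unadjusted p under 0.05, 952 genes were higher and 784 lower. Called higher genes with a peak numbered 18, 10 at 4-fold and 6 within 1000 bp. Higher genes called at 4-fold in starvation or Δ*nuc-1* numbered 8, 5 when 4-fold was also asked of Δ*nuc-3*, and 19 at 2-fold in those experiments. The log2 fold change of *pho-3* was 0.30 and turned sign without wild-type replicate 2, with a range of -0.0577 to 0.574 over the libraries left out. The cause of these shifts was not tested. The planned search for CACGTG upstream of start codons was not run. Unknown depth limits what can be said of genes of low TPM.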

Other observations

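Genes of the mitochondrial genome, a group chosen after its values were seen, tended to be higher in Δ*nuc-3*. Of 23 tested, 19 had a positive log2 fold change, with a median of 0.50, and the groups did not overlap in the upward direction in 13 (56.5%, against 15.3% of all genes). Of the 23, NCU16007 and NCU16025 were called higher, beside 0.637% of all genes tested. NCU16007 was at 37.1, 39.4 and 38.9 rescaled TPM in wild type and 71.9, 105 and 77.7 in Δ*nuc-3*. NCU16025, which alone of these is annotated as ATPase subunit 6, was at 18.4, 24.6 and 25.5 against 42.1, 56.6 and 45.1. NCU16004 was 1.81-fold higher (limma adjusted p = 0.039), below the ratio for a call. The summed level of the mitochondrial genes was 998 to 1216 for wild type and 1582 to 1898 for Δ*nuc-3*. The libraries were enriched for poly(A) RNA, and the part of that step in these values was not tested.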
